A study of Mus musculus with 2 samples.

Results

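Laminins are large secreted glycoproteins that assemble from an alpha, a beta and a gamma chain, each the product of its own gene, and polymerise into the sheet on which a basement membrane is built. In the embryonic heart such membranes lie around cardiomyocytes and beneath endocardium, vessels and epicardium. The alpha chain sets most of the receptor binding, through integrins and dystroglycan, while beta and gamma chains are shared more widely. The 9 genes described here, Lama1 to Lama5, Lamb1, Lamb2, Lamb3 and Lamc1, were taken by symbol from the 55348 gene entries of each read count table. All 9 are protein-coding, and all 9 had a mean of at least 1 CPM (a gene's reads put on a common library size with TMM factors), as did 14716 entries in all.

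The series held RNA-seq of E13.5 mouse hearts of strain 129sv, with 1 library from Lmna H222P/H222P hearts and 1 from wild-type hearts. Lmna encodes lamins A and C of the nuclear lamina, and homozygous H222P mice serve as a model of cardiomyopathy due to LMNA mutations. The study concerned the histone demethylase LSD1 as a target in this disease, and neither library was labelled as drug-treated. The mutation is a missense change of the endogenous gene and is not limited to a cell type, and how many hearts were pooled per library was not stated in the labels. Reads on genes numbered 25120790 in the H222P library and 32669225 in the wild-type library. With 1 library per genotype no difference has a replicate check or a p-value, and each 95% interval covers counting error only.

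Lmna had 1865 reads in the H222P library and 2068 in the wild-type library, a log2 ratio of 0.08 (−0.01 to 0.17), which does not check the genotype since a missense allele is still transcribed. The 2 libraries also differed in markers of other cell types. All 12 hepatocyte markers passed 1.5-fold upward in the mutant library, with summed levels of 5817 CPM in the H222P library and 12.9 CPM in the wild-type library, where Fabp1 had 0 reads. Red cell precursor markers were higher for 7 of 8 (1359 CPM summed in the H222P library, 203 CPM in the wild-type library), and cardiomyocyte markers lower for 5 of 8 (9599.7 CPM in the H222P library, 17449.9 CPM in the wild-type library). Of 7 epicardial and mesothelial markers 1 was lower and 0 higher, and of 7 smooth muscle and pericyte markers 2 were lower and 1 higher. Of 3 measured skeletal muscle markers 2 were higher. Over all measured entries 11.4% were at least 1.5-fold lower and 10.9% higher, so 1 of 7 either way does not stand apart. With 1 library each, tissue carried along at dissection and genotype cannot be told apart, and this holds for every ratio given here. In bulk tissue, fewer cells of a type and less RNA per cell cannot be told apart.

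**Figure D1:**
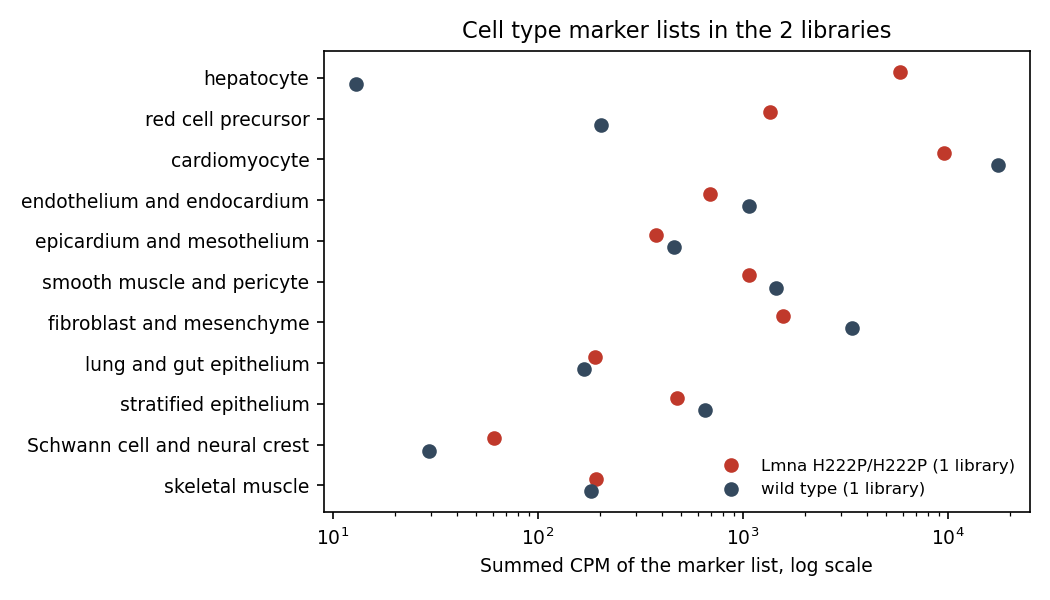
Summed CPM (log axis) of 11 cell type marker lists in the H222P library and the wild-type library, 1 point per library and list, with no replicates. Hepatocyte and red cell precursor lists lay far to the right in the H222P library, and cardiomyocyte, endothelial and fibroblast lists to the left.

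Most laminin transcripts were less abundant in the H222P library, with ratios below 0 on the log2 scale for 8 of the 9 chains, against 50.8% of all measured entries. With scaling by total reads it was 7 of 9, since Lama5 turned positive. Summed over the 9 chains there were 36075 reads in the H222P library and 57856 in the wild-type library, which made 0.144% of reads on genes in the H222P library (exact binomial interval 0.142 to 0.145) and 0.177% in the wild-type library (0.176 to 0.179). The scaled sum was 1.37-fold lower in the H222P library. Of the 9 chains, 4 were at least 1.5-fold lower (Lama2, Lama3, Lama4 and Lamb3), 1 was at least 1.5-fold higher (Lama1), and Lama5, Lamb1, Lamb2 and Lamc1 lay between these bounds. Over all 14716 measured entries, 11.4% were at least 1.5-fold lower and 10.9% at least 1.5-fold higher, so the laminin share of 44.4% lower stood above that background and the 11.1% higher close to it. The median log2 ratio was −0.50 over the chains and −0.01 over all measured entries. At a 2-fold bound, 1 chain (Lama3) was lower and 0 were higher, against 4.35% and 5.95% of all entries. Scaling by total reads moved the median of all entries to 0.15 and the background to 7.74% lower and 15.2% higher, and left the 4 lower and 1 higher chains in number.

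**Figure D2:**
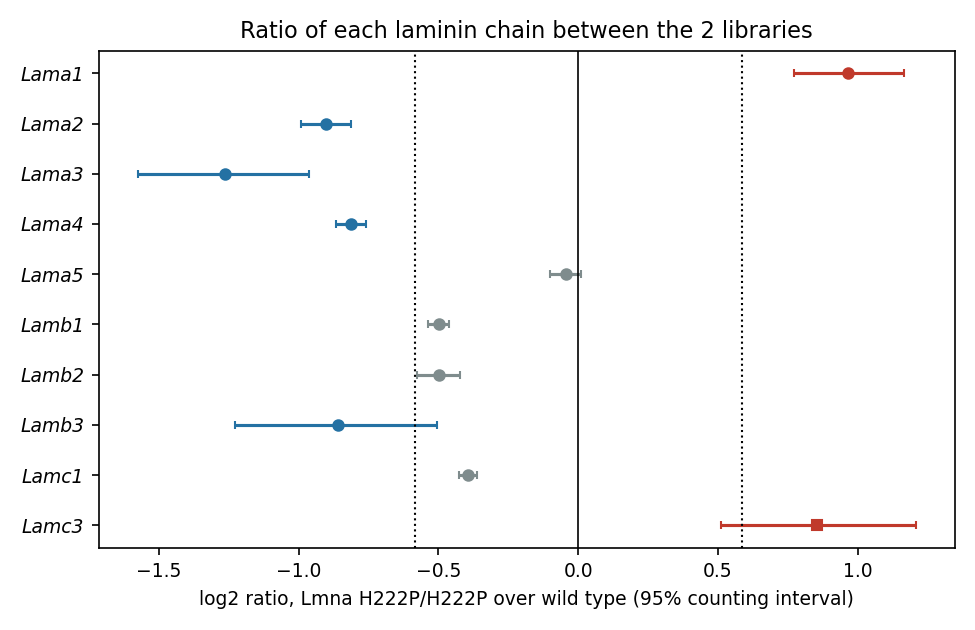
The log2 ratio, Lmna H222P/H222P over wild type, of the 9 chains (circles) and of Lamc3 (square), with 95% counting intervals. Dotted lines mark 1.5-fold; Lama1 at 0.97 lay to the right, and Lama2, Lama3, Lama4 and Lamb3 to the left.

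Lama4 encodes the short alpha chain of vessel walls, which is also made around cardiomyocytes. It spans chromosome 10, 38965515 to 39110188 (mm10), on the plus strand, with 4143 reads in the H222P library and 8506 in the wild-type library. It was 1.75-fold lower (1.69 to 1.82) and stood at percentile 6.54 of the ratios of all measured entries. Endothelial and endocardial markers were lower in the same library, 6 of 8 by at least 1.5-fold, beside 11.4% of all entries. Their sums were 691 CPM in the H222P library and 1071 CPM in the wild-type library, with no marker at 0. Pecam1, an adhesion molecule of endothelium, had a log2 ratio of −0.75 (−0.83 to −0.68) beside −0.81 (−0.87 to −0.76) for Lama4. The list median was −0.66, and the 2 markers within 1.5-fold were Kdr at −0.43 and Nfatc1 at 0.05 (−0.10 to 0.20). Smooth muscle and pericyte markers moved less, with 2 of 7 lower, 1 higher and a median log2 ratio of −0.13. The part of either marker list in the Lama4 value was not tested.

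Lama2 encodes the alpha chain of muscle and peripheral nerve basement membranes, whose loss causes congenital muscular dystrophy. It spans chromosome 10, 26980036 to 27619758, on the minus strand, with 1474 reads in the H222P library and 3223 in the wild-type library. The ratio was 1.87-fold lower (1.76 to 1.99). Relative to Lama4, which needs no scaling between libraries, Lama2 was at 0.939 times its wild-type proportion (exact interval 0.873 to 1.01), an interval that includes equal change of both chains. The cardiomyocyte markers ranged in log2 ratio between −1.62 (Tnni3) and −0.17 (Myh6), with Tnnt2, cardiac troponin T, at −1.27. Lama2 at −0.90 lay within that range, as did Lama3, Lama4, Lamb1, Lamb2, Lamb3 and Lamc1. The range thus does not set Lama2 apart. Fibroblast and mesenchyme markers were lower for 5 of 7, with Pdgfra higher at a log2 ratio of 1.26. Their sums were 1570.0 CPM in the H222P library and 3398 CPM in the wild-type library. Schwann cell and neural crest markers went the other way from Lama2, with 4 of 6 measured ones higher and 0 lower. The median log2 ratio of these 6 was 2.14.

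Lama5 encodes the widely expressed alpha chain of embryonic epithelia and of vessels. It spans chromosome 2, 180176373 to 180225859, on the minus strand, with 5056 reads in the H222P library and 6102 in the wild-type library. Its log2 ratio was −0.04 (−0.10 to 0.01), near the middle of all measured entries at percentile 46.1, and became 0.11 with scaling by total reads. Against Lama4 its proportion was 1.70 times that of the wild-type library (1.61 to 1.79). The shift between these alpha chains was thus seen without any library scaling.

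Promoter sequences in RefSeq (GRCm38.p6, the assembly of mm10) were examined for 5 of the 9 genes, and the others were left out. Those of Lama2 and Lama5 are printed since these alpha chains had unlike ratios and the 250 bases before the RefSeq start held no annotated exon of the gene. Capitals mark CG dinucleotides, and both run 5′ to 3′ on the minus strand, at chr10:27616943-27617192 for Lama2 and chr2:180225860-180226109 for Lama5. The Lama2 window lies inside the GENCODE span of the gene, which reaches farther upstream.
Lama2: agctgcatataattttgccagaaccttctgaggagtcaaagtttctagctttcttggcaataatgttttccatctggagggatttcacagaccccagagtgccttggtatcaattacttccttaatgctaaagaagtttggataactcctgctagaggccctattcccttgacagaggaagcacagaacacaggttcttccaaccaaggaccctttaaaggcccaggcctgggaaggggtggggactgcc
Lama5: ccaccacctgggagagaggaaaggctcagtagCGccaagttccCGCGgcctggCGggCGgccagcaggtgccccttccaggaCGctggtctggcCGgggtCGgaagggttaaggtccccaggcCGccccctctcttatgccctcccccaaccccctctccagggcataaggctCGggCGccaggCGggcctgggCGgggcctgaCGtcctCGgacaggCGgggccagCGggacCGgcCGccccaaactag
The Lama2 window held 0 CG dinucleotides and the Lama5 window 19, against a median of 6 over 27025 promoters of the same length. The motif GGGCGG (the GC box, searched on both strands) occurred 4 times in the Lama5 window and 0 times in the Lama2 window, and 32.9% of all promoters held it. The E-box, CANNTG, which reads alike on both strands, occurred 2 times for Lama5 and 1 time for Lama2, with 66.0% of all promoters holding it. Neither window held TATAAA (13.0% of promoters, both strands). These matches describe letters only, and binding was not measured.

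Lama1 encodes the alpha chain of the earliest embryonic basement membranes, later found in some epithelia and in the nervous system. It spans chromosome 17, 67697259 to 67822647, on the plus strand, with 573 reads in the H222P library and 343 in the wild-type library. It was the only chain of the 9 above 0 on the log2 scale with TMM scaling, at 1.95-fold higher (1.71 to 2.24) and percentile 93.8. Its proportion to Lama4 was 3.43 times that of the wild-type library (2.98 to 3.95). Lama1 was still scarce, at 2.23 RPKM in the H222P library and 1.14 RPKM in the wild-type library (CPM per kilobase of merged exons). Hepatocyte markers moved in the same direction, as did red cell precursor markers (7 of 8 higher) and skeletal muscle markers (2 of 3 measured). Lung and gut epithelial markers were mixed, with 3 of 9 higher and 2 lower. Schwann cell and neural crest markers were at least 1.5-fold higher for 4 of 6 measured ones, beside 10.9% of all entries. Their sums were 60.9 CPM in the H222P library and 29.3 CPM in the wild-type library. Sox10, a transcription factor of neural crest, had 224 reads in the H222P library and 25 in the wild-type library. Whether RNA of such cells adds to the Lama1 value was not tested.

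Lama3 and Lamb3 encode an alpha and a beta chain of epithelial basement membranes, which anchor the epidermis and other epithelia. Both were lower. Lama3 (chromosome 18, 12333819 to 12583013) had 122 reads in the H222P library and 343 in the wild-type library, 2.40-fold lower (1.95 to 2.98). Lamb3 (chromosome 1, 193207699 to 193343878) had 96 reads in the H222P library and 204 in the wild-type library, 1.81-fold lower (1.42 to 2.34), the only call among the 9 chains whose interval reached inside 1.5-fold.

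Epithelial markers did not move as a block beside them. Of 9 lung and gut epithelial markers, 3 were at least 1.5-fold higher and 2 lower, with sums of 190 CPM in the H222P library and 168 CPM in the wild-type library. Sftpc, surfactant protein C of distal lung epithelium, had 1 read in the H222P library and 211 in the wild-type library, and the lung transcription factor gene Nkx2-1 had 161 in the H222P library and 381 in the wild-type library. The higher ones were the keratin genes of simple epithelia Krt8, with 1324 reads in the H222P library and 827 in the wild-type library, and Krt18, with 1278 in the H222P library and 885 in the wild-type library, and the transcription factor gene Sox2, with 174 in the H222P library and 93 in the wild-type library. Among stratified epithelium markers, of which 4 of 7 were measured, 2 were lower and 0 higher. Lower were Perp, a desmosome-associated gene, with 915 reads in the H222P library and 2997 in the wild-type library, and Krt14. The keratin gene Krt14 had 32 reads in the H222P library and 59 in the wild-type library, a log2 ratio of −0.65 (−1.32 to −0.01). Krt5, a basal keratin, fell below a mean of 1 CPM, with 17 reads in the H222P library and 10 in the wild-type library. How far lung or other epithelium within the dissected tissue sets the Lama3 and Lamb3 values was not tested.

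The beta chains Lamb1 and Lamb2 had the same ratio. Lamb1, the main beta chain of the embryo (chromosome 12, 31265234 to 31329644), had 9251 reads in the H222P library and 15284 in the wild-type library, 1.41-fold lower (1.38 to 1.45). Lamb2, the beta chain of synapses, kidney filter and mature muscle (chromosome 9, 108479736 to 108490530), had 2194 reads in the H222P library and 3627 in the wild-type library, also 1.41-fold lower (1.34 to 1.49). The proportion of Lamb2 to Lamb1 was 0.999 times that of the wild-type library (0.942 to 1.06), and that of Lamb3 to Lamb1 0.777 times (0.603 to 0.997). The RefSeq promoter windows of this pair differed in content, with 14 CG dinucleotides and 2 GC boxes for Lamb1 and 3 and 0 for Lamb2. Unlike the printed windows, these held annotated exon bases of the gene, 59 for Lamb1 and 48 for Lamb2.

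Lamc1, the gamma chain of most laminins and required for the first basement membranes of the embryo, was the most abundant chain per length of merged exons in both libraries. It spans chromosome 1, 153218922 to 153332786, with 13166 reads in the H222P library and 20224 in the wild-type library, 1.31-fold lower (1.28 to 1.34). By longest transcripts its lead over Lamb1 in the wild-type library was within counting error, at 85.6 RPKM for Lamc1 and 85.3 RPKM for Lamb1. Lamc3, a gamma chain of nervous system and other restricted sites, went the other way with 178 reads in the H222P library and 115 in the wild-type library, a log2 ratio of 0.85 (0.51 to 1.21).

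Per length of merged exons, the order in the H222P library was Lamc1 (60.1 RPKM), Lamb1 (35.2), Lama5 (16.8), Lamb2 (13.6), Lama4 (13.0), Lama2 (3.41), Lama1 (2.23), Lamb3 (0.548) and Lama3 (0.429). Lamb2 and Lama4, and likewise Lamb3 and Lama3, had overlapping counting intervals. In the wild-type library the order was Lamc1 (78.9 RPKM), Lamb1 (49.7), Lama4 (22.7), Lamb2 (19.2), Lama5 (17.3), Lama2 (6.37), Lama1 (1.14), Lama3 (1.03) and Lamb3 (0.996), and the counting intervals of the last 3 overlapped. Order and levels depended on the length used. By longest transcripts, Lama4 came after Lamc1 and Lamb1 at 25.9 RPKM in the H222P library and 45.4 RPKM in the wild-type library, above Lama5 at 16.8 RPKM in the H222P library and 17.3 RPKM in the wild-type library. Lamb1 then stood at 60.4 RPKM in the H222P library and Lama2 at 5.79 RPKM in the H222P library and 10.8 RPKM in the wild-type library. Lamb3 came before Lama1 and Lama3 in the wild-type library, but its counting interval (1.17 to 1.55 RPKM) overlapped that of Lama1 (1.04 to 1.29).

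**Figure D3:**
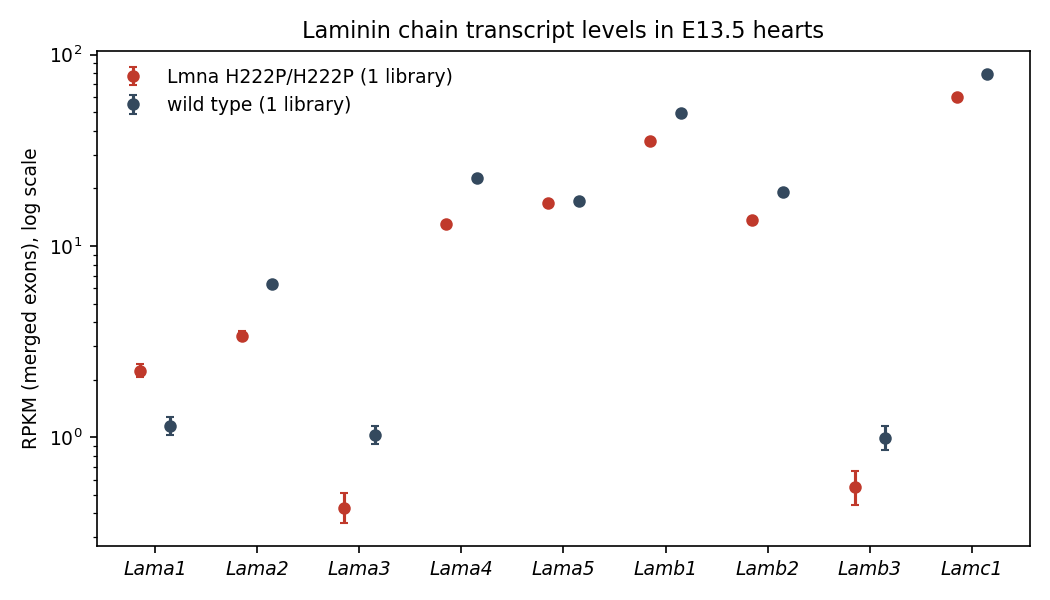
RPKM per kilobase of merged exons (log axis) of the 9 chains in the H222P library and the wild-type library, with 95% Poisson counting intervals, 1 library each. Only Lama1 lay higher in the H222P library beyond its interval, while Lama5 was at 16.8 RPKM in the H222P library and 17.3 RPKM in the wild-type library.

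The mix of alpha chains differed between the libraries. Lama5 made up 46.8% of alpha chain reads per length in the H222P library (45.9 to 47.8) and 35.6% in the wild-type library (34.9 to 36.3). Lama4 made up 36.2% in the H222P library (35.3 to 37.1) and 46.8% in the wild-type library (46.1 to 47.5). Lama2 held 9.52% (9.05 to 10.0) in the H222P library and 13.1% in the wild-type library. Lama1 held 6.24% in the H222P library (5.76 to 6.75) and 2.35% in the wild-type library (2.11 to 2.61), and Lama3 1.20% in the H222P library and 2.12% in the wild-type library. Which alpha chain led in the H222P library depended on the length used. With the longest annotated transcript of each gene, Lama4 led in both, at 50.6% in the H222P library and 59.96% in the wild-type library, with Lama5 at 32.8% in the H222P library and 22.8% in the wild-type library. The direction of each of these shifts was the same with either length. Among beta chains, Lamb1 kept 71.3% in the H222P library and 71.1% in the wild-type library, with overlapping intervals.

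**Figure D4:**
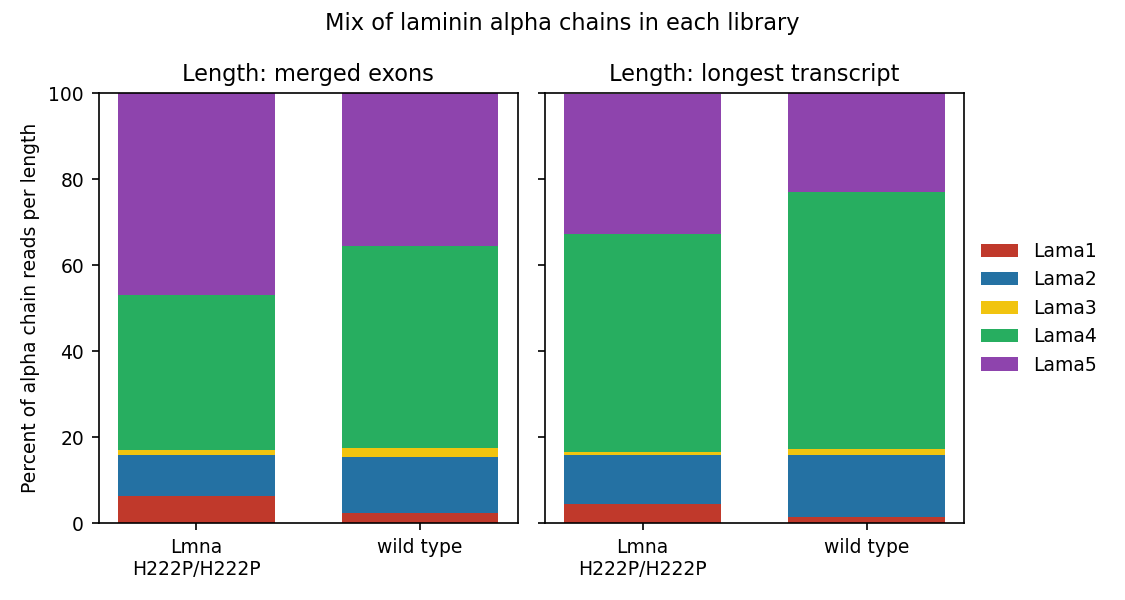
Share (percent) of each alpha chain among alpha chain reads per length, in the H222P library and the wild-type library, by merged exons (left) and by longest transcript (right). Lama5 and Lama1 took larger shares and Lama4 and Lama2 smaller ones in the H222P library under both lengths.

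Summed per length of merged exons, alpha chains stood at 0.596 of the Lamc1 level in the H222P library and 0.616 in the wild-type library, and beta chains at 0.822 in the H222P library and 0.887 in the wild-type library. By longest transcripts the quotient for alpha chains was 0.784 in the H222P library and 0.884 in the wild-type library. That for beta chains was 1.16 in the H222P library and 1.25 in the wild-type library. In both libraries and by both lengths, alpha chain transcripts were the scarcest class.

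Several partners of laminin in the basement membrane were also lower. Of 22 measured partners, 8 were at least 1.5-fold lower and 0 higher, beside the 11.4% and 10.9% of all entries, and their median log2 ratio was −0.28. Collagen IV, the other network of the membrane, supplied 5 of the 8, with Col4a1 at −0.70 (14594 reads in the H222P library and 27812 in the wild-type library), Col4a2 at −0.69, Col4a5 at −0.69, Col4a3 at −1.08 and Col4a4 lowest at −1.42. Col4a3 had only 28 reads in the H222P library and 70 in the wild-type library, and its interval (−1.78 to −0.44) reached inside 1.5-fold. Col4a4 had 70 reads in the H222P library and 220 in the wild-type library. The others were Col15a1 (−0.87), the calcium-binding matrix gene Sparc (−0.74), which was the most abundant partner, and the integrin ligand gene Npnt (−0.68). Frem1 was highest at 0.19. The proteins that link laminin to the rest of the membrane, chosen after their values were seen, lay between the bounds, with nidogen genes Nid1 at −0.41 and Nid2 at −0.28, perlecan (Hspg2) at −0.19 and agrin (Agrn) at −0.05.

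Of 14 laminin receptors, 5 were at least 1.5-fold lower and 0 higher, beside 11.4% and 10.9% of all entries, and the median log2 ratio was −0.37. Itga7, the integrin alpha chain of muscle that binds laminin, had 23 reads in the H222P library and 170 in the wild-type library, a log2 ratio of −2.63 (−3.36 to −2.03). Bcam, a receptor for the Lama5 product, was at −0.91 (−0.96 to −0.85) while Lama5 itself was at −0.04. Mcam, an endothelial receptor for the Lama4 product, was at −0.94 (−0.99 to −0.89), and the collagen- and laminin-binding Itga1 at −0.71. Itgb1, the common integrin beta chain, was at −0.59 with an interval (−0.61 to −0.57) that spanned the bound. Dystroglycan (Dag1) was at −0.29, Itga6 at −0.35 and Itga3 at −0.31. The only receptors above 0 were Itgb4, the integrin beta chain of epithelia, at 0.28 (−0.20 to 0.76), and the proteoglycan gene Sdc1 at 0.07 (−0.02 to 0.17). All 16 measured genes of dystroglycan glycosylation, which builds the sugar chain that holds laminin, lay within 1.5-fold, between Rxylt1 at −0.47 and B3galnt2 at 0.43, with Pomgnt1 most abundant at −0.34 and a median of −0.01.

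Netrins share the laminin amino-terminal fold, and 5 of 6 were measured. Ntn4, whose product binds laminin gamma chains, had 110 reads in the H222P library and 498 in the wild-type library, a log2 ratio of −1.95 (−2.26 to −1.65), and Ntn1 was at −0.86. Ntn3, Ntng1 and Ntng2 were higher, at 0.97, 1.31 and 1.44.

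**Figure D5:**
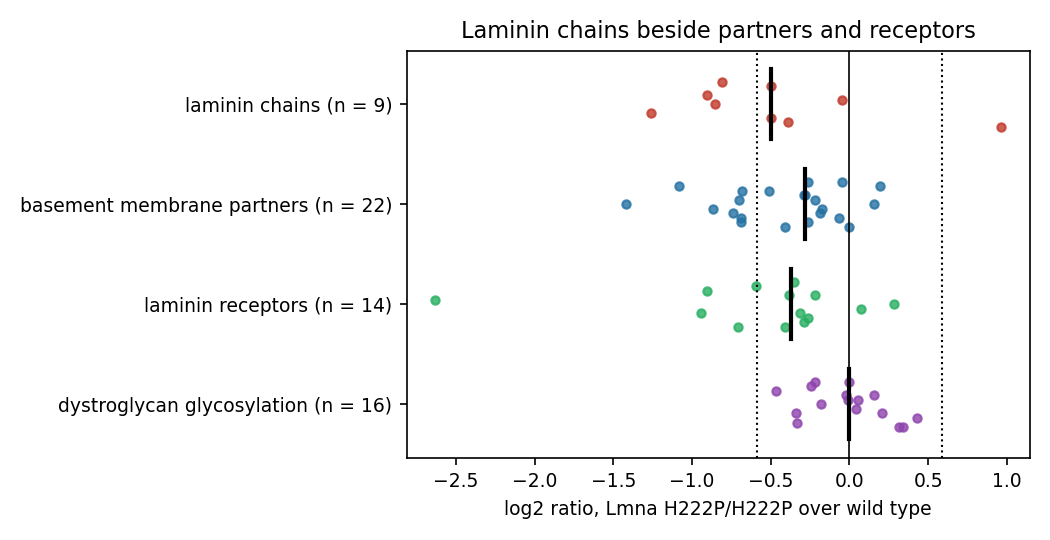
The log2 ratio, Lmna H222P/H222P over wild type, of each measured gene in 4 groups, with black bars at the medians (−0.50 for laminin chains, −0.28 for partners, −0.37 for receptors and −0.01 for dystroglycan glycosylation). Dotted lines mark 1.5-fold, which no gene of dystroglycan glycosylation passed.

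The strand of the reads bears on genes with neighbours on the other strand. Of the 9 chains, 4 (Lama1, Lama4, Lamb1 and Lamb2) overlapped no other annotated gene. Lamb3 shares its span with G0s2 and Hsd11b1 on the opposite strand, where G0s2 had 416 reads in the H222P library and 688 in the wild-type library. Pooling the strands changed the reads of Lamb3 by at most 1. Lamb3 also overlaps Gm37691 on its own strand, where strand cannot separate reads. Gm37691 had 30 reads in the H222P library and 61 in the wild-type library. Lama2 had 1428 reads in the H222P library and 3074 in the wild-type library when strands were pooled, fewer than on its own strand.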

How the data were processed

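RNA came from a Zymo Research kit and the molecule is total RNA, per the labels. The deposited values are raw read counts per gene, not normalized, in the layout STAR writes; the submitters' processing notes name STAR, HTSeq, DESeq and build mm10, without versions or roles, and the authors' annotation release was not stated. The reverse-strand column was used (20.5 times the forward reads in the H222P library, 19.3 times in wild type). Library sizes hold gene entries only: unassigned reads were 4.45% and 3.88%, multiply mapped 6.09% and 5.37%, unmapped 5.10% and 5.40%, and ambiguous 2.38% and 2.53% of reads in the H222P and wild-type tables.

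Scaling used TMM from edgeR 4.0.16 in R 4.3.3. Log2 ratios used a prior count of 0.5; intervals are exact Clopper-Pearson or Poisson (95%, scipy 1.17.1). Reads lack molecular identifiers, so intervals cover counting error only. No test was possible with 1 library per genotype. Coordinates and lengths come from GENCODE M21 (GRCm38, the assembly of mm10); merged exons join all annotated transcripts. All 9 chains are named; short lists could be named in full, and longer ones by most abundant, highest, lowest and members past 1.5-fold. Members and lists were chosen with earlier results of these data known. The calculation of log2 ratios and their intervals was tested on simulated Poisson counts. TMM scaling, shares per length and proportions between chains were not part of that check. A gene of the lists is not reported here.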

Additional observations from a re-analysis of the deposited data

How the results depend on the processing

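The 9 other settings tried were size factors of DESeq2 1.42.0, scaling by total reads, TMM without liver, red cell precursor and globin genes, no filter, a mean of at least 5 CPM, a prior count of 5, unstranded counts, a thinned deeper library and a 2-fold bound. The counts of 1 higher and 4 lower chains were the same under the first 8 and became 0 higher and 1 lower (Lama3) at 2-fold. The 2 filter settings could not change these counts. A filter leaves each ratio as it is, and all 9 chains passed both (Lamb3 lowest, at a mean of 5.10 CPM). The median log2 ratio of the chains was −0.35 with total reads and between −0.53 and −0.50 under the others. Over the alternatives Lama1 ranged between 0.94 and 1.12, Lama4 between −0.84 and −0.66, Lama2 between −0.93 and −0.75, Lama3 between −1.29 and −1.11 and Lamb3 between −0.89 and −0.70. Lama5 was −0.07 with DESeq2 size factors and 0.11 with total reads, so its direction was not fixed. All 6 proportions between chains stayed within their intervals with unstranded counts, while the wild-type share of Lama2 among alpha chains became 12.5%. Shares per length moved with the longest transcript for all 5 alpha chains in both libraries, and for Lamb1 (79.6% in the H222P library and 79.4% in wild type) and Lamb2 (19.4% in both). No paired analysis was possible because each genotype has 1 library. Depth limits Lama3 and Lamb3 most, with 96 reads the lowest count.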
